A study of Mus musculus with 24 samples.

Results

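The immunoglobulin constant-region genes are described here across co-cultures of mouse macrophages and spleen lymphocytes. The 10 members were the genes in the count table whose Ensembl identifiers match Ighm, Ighd, Ighg1, Ighg2b, Ighg2c, Ighg3, Igha, Igkc, Iglc1 and Iglc2, out of 55487 listed genes. All 10 were found and all 10 passed the filter on low counts, with 14099 genes tested in all. Poly(A) RNA was sequenced from 24 libraries, 3 in each of 8 groups. Macrophages grown from bone marrow (BMDMs), either WT or Tmem175-/- (called knockout below), were kept with lymphocytes from the spleens of mice that carried B16-F10-OVA tumours, a melanoma line that makes ovalbumin. For each genotype there were cultures without antigen, with tumour cell antigen of B16-F10-OVA, with that antigen and IL-1beta at 500 pg/ml, and with that antigen and IL-18 at 500 pg/ml. All 8 groups therefore held lymphocytes of tumour-bearing mice, and the labels do not give the genotype, age or strain of those mice. Whether the lymphocytes of all cultures came from the same pool is not stated either. A difference in lymphocyte input between the arms could therefore not be told apart from the macrophage genotype. The labels also leave unsaid what a replicate is (another mouse, another macrophage batch or another well). The p-values therefore speak only of the spread between these samples, which may be technical.

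An antibody is built from paired heavy and light chains, and each chain joins a variable segment, which binds antigen, to a constant region. The heavy-chain constant region sets the isotype: Ighm and Ighd encode those of IgM and IgD, the forms carried by naive B cells, whereas Ighg1, Ighg2b, Ighg2c and Ighg3 encode IgG subclasses and Igha encodes IgA. B cells move from the first pair to the others by class switch recombination, and plasma cells then make very large amounts of secreted heavy-chain and light-chain RNA. Igkc encodes the kappa light-chain constant region, and Iglc1 and Iglc2 encode lambda ones. In bulk RNA, fewer cells of a type and less RNA per cell cannot be told apart.

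The isotypes can only be separated as far as their sequences differ, so the starts of the most similar members are shown first, from GENCODE vM21 transcripts (GRCm38 annotation). The stretches begin at the first constant exon, and capitals mark positions at which the genes of a set differ, 26 of 75 bases in the gamma set and 16 of 75 in the lambda set.
Ighg2b: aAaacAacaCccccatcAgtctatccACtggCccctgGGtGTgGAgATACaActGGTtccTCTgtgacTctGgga
Ighg2c: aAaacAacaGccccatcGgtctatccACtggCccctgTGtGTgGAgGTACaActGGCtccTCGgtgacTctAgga
Ighg1: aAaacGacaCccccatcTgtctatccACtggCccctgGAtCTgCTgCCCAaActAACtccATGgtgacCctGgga
Ighg3: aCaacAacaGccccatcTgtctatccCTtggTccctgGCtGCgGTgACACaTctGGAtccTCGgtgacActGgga
Iglc2: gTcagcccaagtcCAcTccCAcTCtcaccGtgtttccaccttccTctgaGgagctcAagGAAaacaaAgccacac
Iglc3: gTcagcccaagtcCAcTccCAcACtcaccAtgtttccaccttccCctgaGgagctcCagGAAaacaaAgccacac
Iglc1: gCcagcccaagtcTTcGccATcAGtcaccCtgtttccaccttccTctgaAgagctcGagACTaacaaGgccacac

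Ighg2c matched Ighg2b at 68 of these 75 bases, Ighg3 at 61 and Ighg1 at 58. In the lambda set Iglc3, which is not a member, matched Iglc2 at 71 of 75 bases and Iglc1 at 60. Over the first 300 bases the identity was 87.7% between Ighg2b and Ighg2c, 88% between Ighg1 and Ighg2b, and 95.7% between Iglc2 and Iglc3. Of all 50-base stretches of its transcripts, Ighg2c shared 5.49% letter for letter with another constant gene, Ighg2b 4.15%, Ighg3 1.58% and Ighg1 0.393%. For Iglc2 the shared part was 7.65%, all of it with Iglc3, and Ighm, Ighd, Igha, Igkc and Iglc1 shared no 50-base stretch. How the authors assigned reads that fit several of these genes is not given in the sources used here, so the split among the 4 Ighg genes and the values of Iglc2 are uncertain to that extent. The sum of the 4 Ighg genes (IgG below) does not depend on how such reads were divided among them, although it would on whether they were dropped.

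The libraries held 17744540 to 24898552 counts. Values are given as CPM, a gene's counts scaled to a common library size after TMM adjustment. Tmem175 itself was reduced in the knockout libraries but still present. In cultures without antigen it reached 15, 14.1 and 14.6 CPM in knockout against 26.1, 25.5 and 24.4 CPM in WT. Its log2 fold change was -0.79, -0.91, -0.87 and -0.82 in the 4 conditions (edgeR adjusted p at most 2.46e-08), and where the deleted part of the gene lies relative to the counted reads is not given. In 11 of the 12 knockout samples the genotype field names another, consecutively numbered gene, whereas all titles name Tmem175. The cultures were dominated by macrophage RNA: the 10 macrophage markers summed to 13613 to 26262 CPM over the libraries, the 13 T cell markers to 31.1 to 207 CPM and the 15 B cell markers to 175 to 272 CPM. Replicates of a group differed by more than counting noise in every pair (chi-square per degree of freedom 1.43 to 15.3), so each library was counted as 1 sample.

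Knockout cultures held far more immunoglobulin constant-region RNA than WT cultures in every condition, and its make-up was different. The 10 members together gave 1883 to 3612 CPM (median 2754) in the 12 knockout libraries and 61.8 to 136 CPM (median 75.9) in the 12 WT libraries. As a share of all counts this was 0.186% to 0.36% against 0.00613% to 0.0142%. IgG genes gave 78.8% to 82.8% of the heavy-chain counts in knockout libraries, whereas Ighm was the largest single source, at 47.7% to 79.2%, in WT libraries. Other cell markers also differed by genotype: over all conditions the 10 macrophage markers summed to 13613 to 19891 CPM in knockout and 19065 to 26262 CPM in WT libraries, and the 7 fibroblast markers to 12.5 to 59.9 and 27.8 to 183 CPM. The 13 T cell markers summed to 122 to 135 CPM in knockout and 190 to 207 CPM in WT without antigen, and to 31.1 to 35.6 and 40 to 45.9 CPM with antigen alone. The summed level of the 9 neutrophil markers overlapped without antigen, and 2, 7 and 6 of them were higher in knockout with antigen, with IL-1beta and with IL-18 (median log2 0.42, 0.86 and 0.64). Of 5 tested dendritic cell markers 3, 1, 2 and 3 were lower in the 4 conditions (medians -1.12 to -0.70). Among all tested genes 9.62%, 7.7%, 7.22% and 9.89% were higher and 7.25%, 7.62%, 6.55% and 10.3% lower in these conditions. The part of these marker differences in the levels of the members was not tested.

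**Figure D1:**
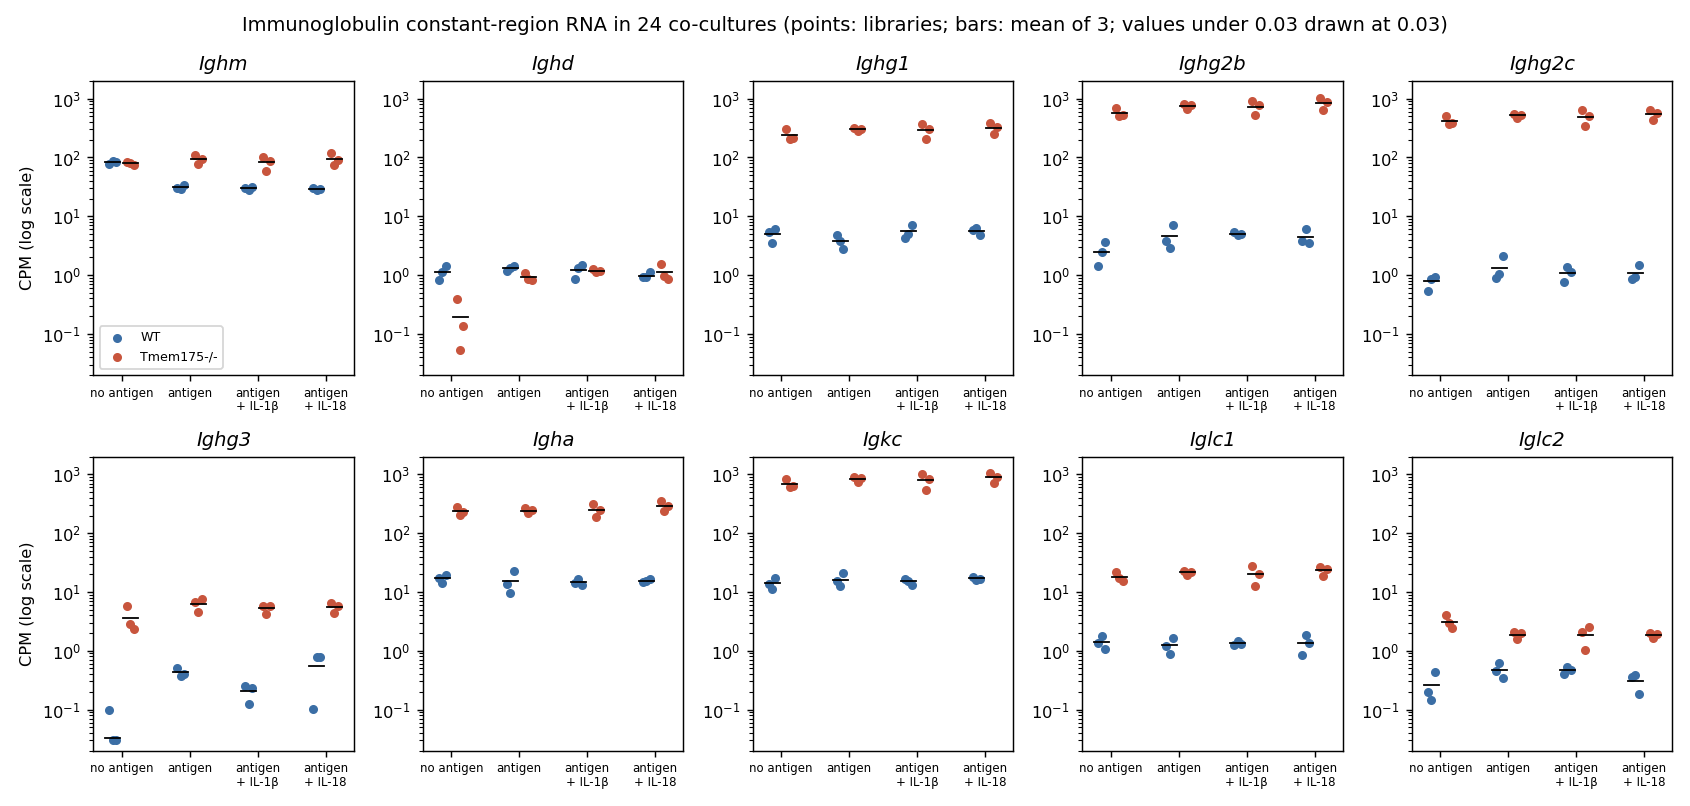
CPM of the 10 constant-region genes (log axis) in each library by condition, with bars at the mean of 3 libraries and values under 0.03 drawn at 0.03. Knockout points lie above all WT points for the 4 Ighg genes, Igha, Igkc, Iglc1 and Iglc2 in each condition. Ighm without antigen overlaps and Ighd without antigen lies lower in knockout. The share of all tested genes without overlap was not counted.

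Knockout and WT cultures without antigen were compared first. Of the 10 members 8 were higher and 1 was lower in knockout, where 16.9% of all tested genes passed (9.62% higher, 7.25% lower; edgeR quasi-likelihood test, Benjamini-Hochberg adjusted p under 0.05). The median log2 fold change of the 10 members was 4.68, against 0.01 over all tested genes. Ighm was the member that did not pass, and Ighd was the one that was lower.

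The IgM and IgD genes did not follow the others. In WT libraries without antigen Ighm reached 77, 85.6 and 85.5 CPM, and in the knockout ones 84.5, 79.6 and 74.7 CPM. These ranges overlap, and the log2 fold change was -0.06 ± 0.18 (SE; edgeR adjusted p 0.892). Ighd stood at 0.839, 1.11 and 1.43 CPM in WT and at 0.393, 0.0533 and 0.135 CPM in knockout, from 17, 23 and 29 against 8, 1 and 3 counts. The groups do not overlap, and Ighd was 5.62-fold lower in knockout (log2 fold change -2.49 ± 0.4, edgeR adjusted p 4.36e-05), although the knockout values rest on 12 counts in all. Without knockout replicate 1, which holds 8 of them, the log2 fold change was -3.45.

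The 3 more abundant IgG genes were all far higher in knockout. Ighg2c, an IgG subclass that engages activating Fc receptors, stood at 0.543, 0.869 and 0.935 CPM in WT (11, 18 and 19 counts) and at 514, 366 and 392 CPM in knockout. This was a 537-fold difference (log2 fold change 9.07 ± 0.36, edgeR adjusted p 1.67e-11). Ighg2b stood at 1.43, 2.51 and 3.59 CPM in WT and at 698, 518 and 531 CPM in knockout (231-fold, log2 7.85 ± 0.35). Ighg1 stood at 5.48, 3.52 and 6.1 CPM against 303, 208 and 217 CPM (48.2-fold, log2 5.59 ± 0.29). The lowest knockout library lay far above the highest WT library for each of these genes. All 3 passed the test, where 9.62% of all tested genes were higher. How many of all tested genes separate in this way was not counted.

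Ighg3 had 2, 0 and 0 counts in the WT libraries without antigen, fewer than the 3 counts per library used as the floor, and 116, 54 and 52 counts (5.7, 2.88 and 2.33 CPM) in knockout. Its mean in knockout was at least 24.8-fold higher than that floor (edgeR adjusted p 3.28e-06). Igha, the IgA gene, stood at 17.6, 14.5 and 19.7 CPM in WT and at 274, 202 and 233 CPM in knockout, a 13.7-fold difference (log2 3.78 ± 0.25). Its fold was the smallest among the switched isotypes that were above the floor in WT.

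Among the light chains, Igkc stood at 13.7, 11.1 and 17.1 CPM in WT and at 836, 603 and 641 CPM in knockout (49.7-fold). Iglc1 stood at 1.33, 1.79 and 1.08 CPM against 21.8, 17.1 and 15.4 CPM (12.9-fold, log2 3.68 ± 0.32). Iglc2 stood at 0.197, 0.145 and 0.443 CPM against 3.98, 2.98 and 2.47 CPM (11.8-fold, log2 3.56 ± 0.35, and 4.15 without WT replicate 3). All 3 passed the test, where 16.9% of all tested genes did (9.62% higher). None of the 3 overlapped between genotypes, and the share of all tested genes without overlap was not counted.

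**Figure D2:**
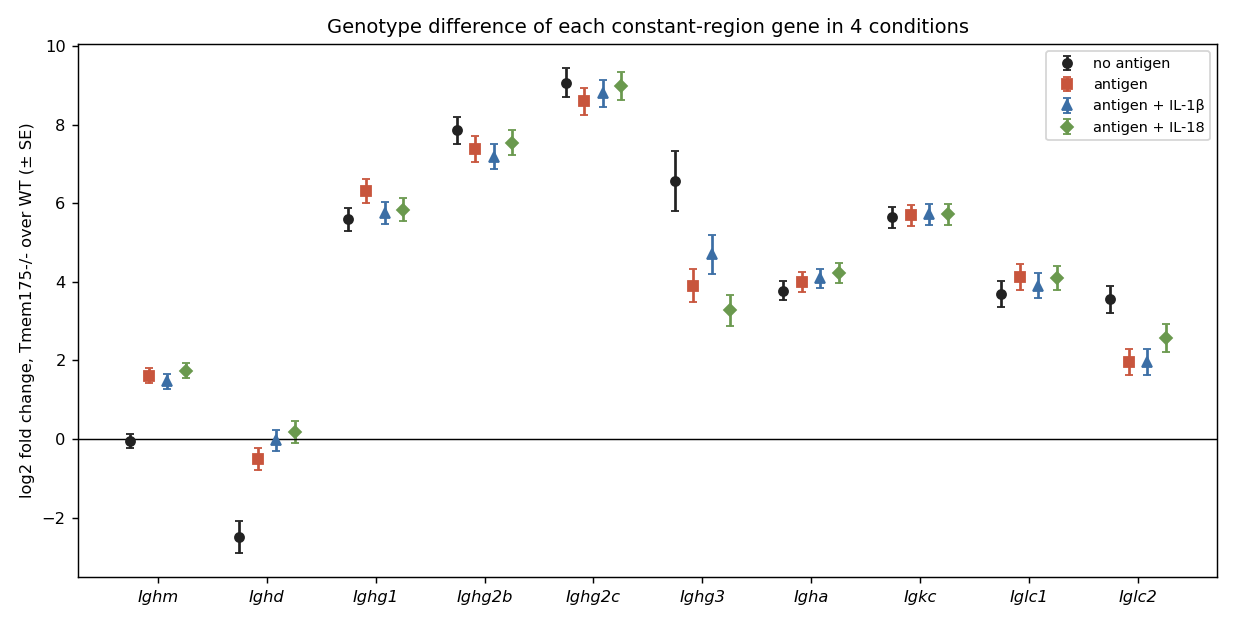
Log2 fold change ± SE (knockout over WT, edgeR) of the 10 members in the 4 conditions. Ighg2c lies between 8.59 and 9.07 in all 4, Igkc between 5.64 and 5.72, and Ighm at -0.06 without antigen and between 1.47 and 1.73 with it.

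The genotype comparison was then made with antigen, antigen and IL-1beta, and antigen and IL-18. In each of these 9 of the 10 members were higher in knockout and none was lower. Of all tested genes 15.3% passed with antigen (7.7% higher, 7.62% lower), 13.8% with IL-1beta (7.22% higher, 6.55% lower) and 20.2% with IL-18 (9.89% higher, 10.3% lower). The median log2 fold changes of the members were 4.06, 4.39 and 4.16. With antigen Ighm was called and Ighd was not, the reverse of the cultures without it.

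Ighm stood at 30.5, 28.6 and 34.1 CPM in WT cultures with antigen and at 110, 78.9 and 93 CPM in knockout ones, a 3.04-fold difference (log2 1.60 ± 0.19, edgeR adjusted p 1.28e-05). With IL-1beta its log2 fold change was 1.47 and with IL-18 1.73. Ighd stood at 1.19, 1.3 and 1.43 CPM in WT with antigen and at 1.06, 0.845 and 0.838 CPM in knockout. The Ighd groups did not overlap, but the difference did not pass (log2 -0.51 ± 0.28, edgeR adjusted p 0.25). With IL-1beta and IL-18 it was -0.04 and 0.18 (adjusted p 0.96 and 0.715).

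Ighg2c stood at 0.903, 1.05 and 2.07 CPM in WT with antigen and at 557, 471 and 528 CPM in knockout, 385-fold higher. With the cytokines its difference was 445-fold (IL-1beta) and 505-fold (IL-18). Ighg2b was 166-fold, 145-fold and 186-fold higher in the 3 antigen conditions and Ighg1 79.5-fold, 53.7-fold and 57-fold. Ighg3, with 2 to 18 counts per WT library in these conditions, was 14.9-fold, 26-fold and 9.64-fold higher. Igha was 15.9-fold, 16.9-fold and 18.6-fold higher.

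The light chains were all called again. Igkc was 51.5-fold, 52.5-fold and 52.6-fold higher in the antigen, IL-1beta and IL-18 conditions, with knockout libraries at 541 to 1056 CPM and WT libraries at 12.8 to 20.9 CPM. Iglc1 was 17.4-fold, 15-fold and 17.1-fold higher. Iglc2 had the smallest of the called light-chain folds (3.88, 3.9 and 5.92), at 1.02 to 2.52 CPM in knockout and 0.187 to 0.628 CPM in WT. None of the 3 overlapped between genotypes in any condition, and the share of all tested genes without overlap was not counted.

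Shares were used to compare isotypes within a library, since a share does not depend on how much immunoglobulin RNA the library holds. Each heavy-chain gene was taken as a percentage of the summed counts of the 7 heavy-chain constant genes, and Igkc as a percentage of the 3 light-chain genes. These are shares of counts, which weight long transcripts more. The heavy-chain sums were 25838 to 53276 counts in knockout libraries and 985 to 2383 in WT libraries. The light-chain sums were smaller, at 11418 to 23064 counts in knockout and 270 to 464 in WT, so the WT shares, and the WT kappa share above all, are the less precise ones. Differences were tested with an exact two-sided permutation test over samples. Genotype was permuted within condition, and for the antigen, IL-1beta and IL-18 contrasts the treatment was permuted within genotype. The p-values were adjusted over 36 tests (9 shares, 4 contrasts). Within a single condition 3 against 3 libraries cannot give a p below 0.1.

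IgM made up the largest share of the heavy-chain counts in WT and a small one in knockout. Without antigen the Ighm share was 74.8%, 79.2% and 72.9% in WT and 4.5%, 5.78% and 5.15% in knockout. The 95% Clopper-Pearson intervals, which cover counting error only, ran from 72.9% to 76.6% in the first WT library and from 4.29% to 4.71% in the first knockout library. Over all conditions the share was 47.7% to 79.2% in the WT libraries and 4.19% to 5.78% in the knockout ones. The mean difference was -53.3 percentage points (exact permutation p 1.25e-05, the smallest this test can give; adjusted p 6.43e-05), and all 12 knockout libraries lay below all 12 WT libraries.

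The IgG share behaved the other way. Without antigen it was 7.33%, 6.38% and 9.06% in WT and 80.9%, 79.5% and 78.8% in knockout. Over all conditions the range was 6.38% to 24.5% in WT and 78.8% to 82.8% in knockout, a difference of 64.9 points (exact permutation p 1.25e-05, adjusted p 6.43e-05). Ighg2b gave the largest share of counts in every knockout library, at 36.6% to 40.6%, against 1.39% to 10.5% in WT. Per kilobase of the longest transcript Ighg2c lay above it, as given below. Ighg2c gave 25.6% to 27.7% in knockout and 0.527% to 2.93% in WT, and Ighg1 15% to 16.4% and 3.26% to 12.2%. These 3 differences, 32.3, 25 and 7.83 points, also had the smallest possible p.

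Igha took a smaller share in knockout over the 4 conditions, -9.81 points on average (exact permutation p 0.0001, adjusted p 0.00045), at 12.4% to 16.1% against 13.4% to 32.1%. Without antigen its share overlapped, with 17.1%, 13.4% and 16.8% in WT and 14.6%, 14.7% and 16.1% in knockout. The Ighd share was 0.815% to 2.73% in WT and 0.00387% to 0.0842% in knockout (difference -1.73 points, exact permutation p 1.25e-05). For Ighg3 the shares overlapped, at 0% to 1.39% in WT and 0.161% to 0.395% in knockout. The mean difference of -0.25 points did not pass (exact permutation p 0.0645, adjusted p 0.145). It joins opposite signs: 0.19 points without antigen and -0.43 with antigen, both without overlap between genotypes. With IL-1beta it was -0.06 and with IL-18 -0.71, both with overlap. The WT shares without antigen rest on 2 Ighg3 counts in all. Kappa made up 96.8% to 97.5% of the light-chain counts in knockout and 85.2% to 93.7% in WT, a difference of 7.3 points with the smallest possible p.

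**Figure D3:**
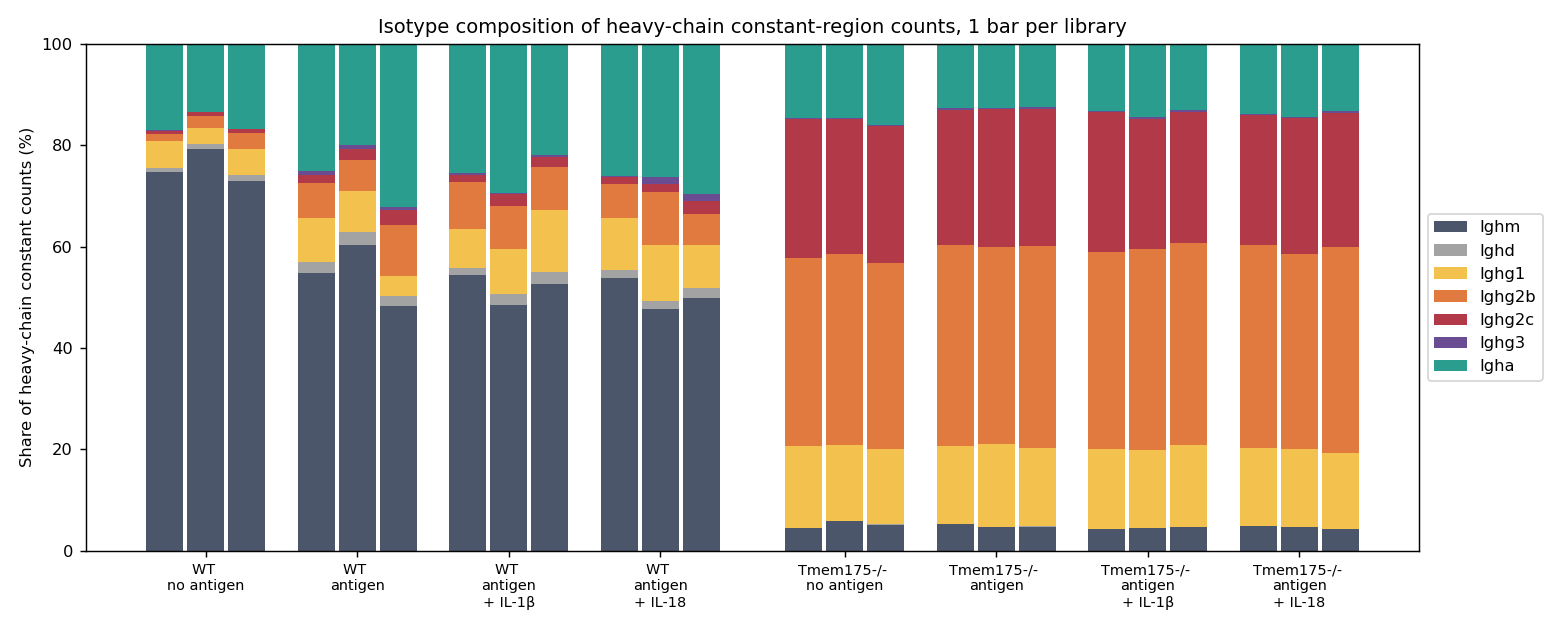
Share of each heavy-chain constant gene in the summed counts of the 7 genes (percent, stacked, 1 bar per library). Ighm fills 47.7% to 79.2% of the WT bars and 4.19% to 5.78% of the knockout bars, where Ighg2b, Ighg2c and Ighg1 fill most of the rest.

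The spread between replicates of these shares was narrow in knockout. Without antigen the mean shares were 37.1% ± 0.52 for Ighg2b, 27% ± 0.38 for Ighg2c and 15.4% ± 0.63 for Ighg1 (SD, n = 3). In WT without antigen they were 2.26% ± 0.84, 0.71% ± 0.16 and 4.59% ± 1.16, where the SD of Ighg2c was smaller than in knockout. With antigen they were 39.5% ± 0.52, 27% ± 0.27 and 15.7% ± 0.6 in knockout. In WT with antigen they were 7.7% ± 2.12, 2.25% ± 0.65 and 6.91% ± 2.57, from 985 to 1434 heavy-chain counts per library.

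Levels can be set side by side between genes only per length, here CPM per kilobase of the longest annotated transcript. In knockout cultures without antigen the order of these levels was Igkc (1304), Ighg2c (349), Ighg2b (227), Ighg1 (97.6), Igha (93), Ighm (46.9), Iglc1 (39.9), Iglc2 (5.19), Ighg3 (1.51) and Ighd (0.107). Ighg1 overlapped with Igha and Ighm with Iglc1 across libraries, and the other neighbours did not overlap. In WT cultures without antigen Ighm led at 48.7 CPM per kilobase, followed by Igkc (26.2), Igha (6.8), Iglc1 (3.08) and Ighg1 (2.03). There Iglc1 and Ighg1 overlapped across libraries. With the shortest transcript, a choice made after the data were seen, Ighg2b came before Ighg2c in knockout (523 against 381 CPM per kilobase). The order of that pair thus depends on which transcript is taken. In WT without antigen Ighg1 (4.68) then came before Iglc1 (3.08), with overlap.

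Ratios of immunoglobulin counts within a library are given as descriptions, and some but not all of them separated the genotypes. The 3 light-chain genes gave 0.418 to 0.459 counts per heavy-chain count in knockout libraries and 0.121 to 0.34 in WT libraries. Counts of the 185 listed heavy-chain variable segments (Ighv) per count of Ighm were 5.8 to 8.1 in knockout and 0.154 to 0.686 in WT. Taken per count of all 7 heavy-chain constant genes, the Ighv ratio was 0.33 to 0.358 in knockout. In WT it was 0.122 to 0.15 without antigen and 0.268 to 0.334 with it, and the latter range overlapped with knockout. Thus the WT cultures without antigen had the fewest variable-segment counts for their heavy-chain constant counts. The counts of the 160 kappa variable segments (Igkv) per count of Igkc overlapped, at 1.23 to 1.41 and 1.25 to 1.71.

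Jchain, which links the units of secreted IgM and IgA, had 0.406 to 0.613 counts per count of Ighm and Igha together in knockout libraries and 0.0738 to 0.15 in WT libraries. Set against Igkc it was the other way round, with 0.168 to 0.292 counts of Jchain per count of Igkc in knockout and 0.347 to 0.665 in WT. Igkc per count of the switched heavy-chain genes (the 4 Ighg genes and Igha) was 0.427 to 0.467 in knockout and 0.501 to 0.729 in WT. None of these 3 ratios overlapped between genotypes.

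**Figure D4:**
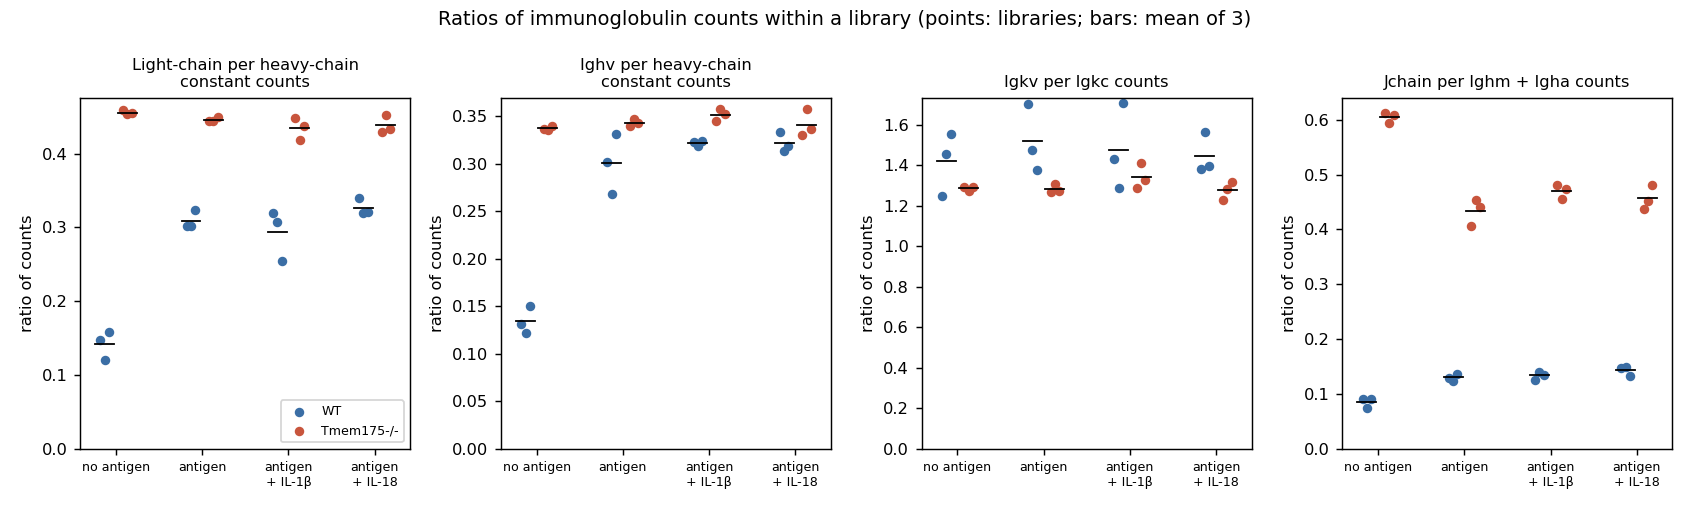
Ratios of immunoglobulin counts within each library (linear axes from 0, bars at the mean of 3). Light-chain per heavy-chain constant counts lie at 0.418 to 0.459 in knockout and at 0.121 to 0.34 in WT, while Igkv per Igkc overlaps between genotypes.

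The response to tumour antigen was compared within each genotype. In WT 2 of the 10 members passed, 1 higher and 1 lower, where 68% of all tested genes did (33.5% higher, 34.5% lower). In knockout 3 of 10 passed, 2 higher and 1 lower, where 68.3% did (33.8% higher, 34.6% lower). Most tested genes thus responded to antigen, while most members had no call. Other cell markers moved with antigen too: the T cell markers summed to 190 to 207 CPM without and 40 to 45.9 CPM with it in WT, and to 122 to 135 and 31.1 to 35.6 CPM in knockout. Of the 9 neutrophil markers 8 were lower in WT and 7 in knockout (median log2 -3.77 and -3.34), and of the 7 fibroblast markers 5 and 3 were higher. The B cell markers summed to 175 to 188 CPM without and 247 to 250 CPM with antigen in WT, where Ighm fell. The part of these markers in the antigen response of the members was not tested. The members' median log2 fold changes were 0.22 in WT and 0.28 in knockout.

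In WT, Ighm fell 2.67-fold with antigen, from the 77 to 85.6 CPM given above to 28.6 to 34.1 CPM (log2 -1.41 ± 0.19, edgeR adjusted p 4.21e-06). Ighg3 rose from 2, 0 and 0 counts to 9, 9 and 8 counts, at least 2.91-fold over the floor (edgeR adjusted p 0.0215). It did not pass when WT replicate 2 without antigen was left out (adjusted p 0.0723), nor without replicate 3 (0.0665) or without the filter on low counts (0.0522). Igha, at 13.9, 9.43 and 22.7 CPM with antigen, had a log2 fold change of -0.18 ± 0.3 that did not pass. Igkc stood at 15.2, 12.8 and 20.9 CPM with antigen (log2 0.22 ± 0.29, not passed).

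In knockout, Ighd rose 4.59-fold with antigen, from 8, 1 and 3 counts to 25, 17 and 19 counts (log2 2.20 ± 0.42, edgeR adjusted p 3.36e-05), in groups that do not overlap. Without knockout replicate 1 without antigen the log2 value was 3.17. Ighg3 rose 1.75-fold, from 5.7, 2.88 and 2.33 to 6.63, 4.62 and 7.72 CPM, with overlap (adjusted p 0.017). The Ighg3 rise did not pass when knockout replicate 3 with antigen (adjusted p 0.0848) or replicate 2 (0.0624) or 3 (0.0914) without antigen was left out, nor in a fit of the compared groups alone (0.0879). Iglc2 fell 1.65-fold, from 3.98, 2.98 and 2.47 to 2.08, 1.59 and 1.98 CPM, without overlap (log2 -0.72 ± 0.23, adjusted p 0.00734), and did not pass without knockout replicate 1 without antigen (0.0812). Ighm, Ighg1, Ighg2b, Ighg2c, Igha, Igkc and Iglc1 had log2 fold changes between 0.03 and 0.39 and did not pass.

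**Figure D5:**
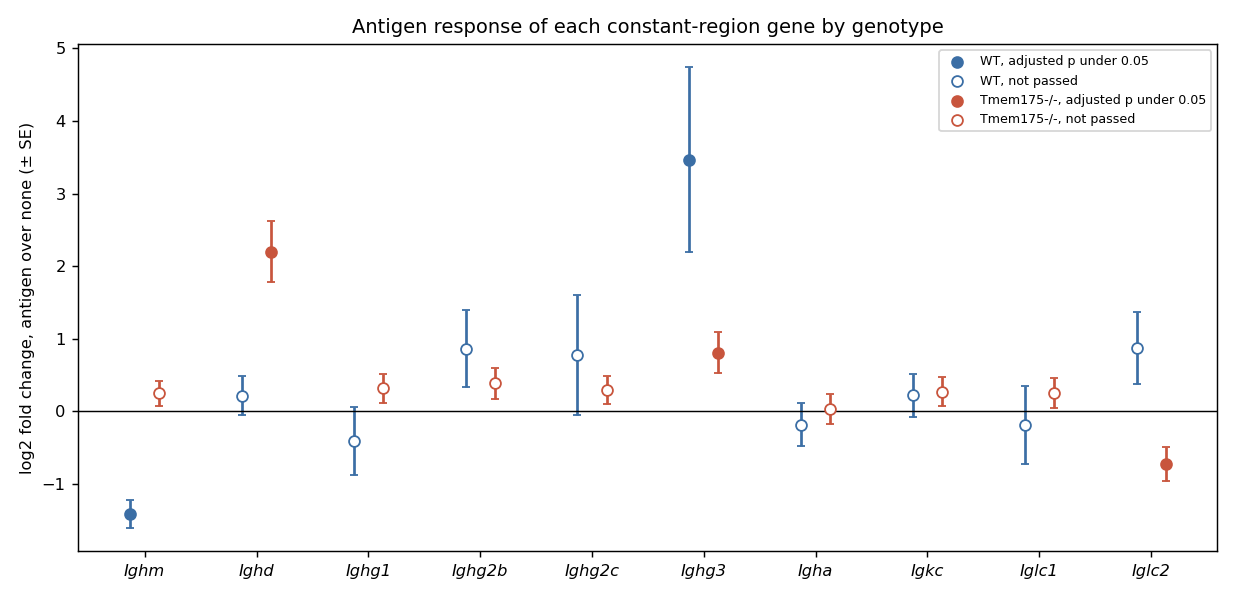
Log2 fold change ± SE with antigen over without it (edgeR) for the 10 members in WT and knockout, with filled points at adjusted p under 0.05. Ighm lies at -1.41 in WT and 0.25 in knockout, and Ighd at 0.22 and 2.20.

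The difference of these responses between genotypes was tested as an interaction. It passed for 2 of the 10 members, Ighm and Ighd, both with a higher response in knockout, where 8.39% of all tested genes passed (3.79% higher, 4.6% lower). Relative to WT, the antigen response in knockout was higher by 1.66 ± 0.26 on the log2 scale for Ighm (edgeR adjusted p 0.000633) and by 1.98 ± 0.51 for Ighd (adjusted p 0.0135). The Ighd difference did not pass without knockout replicate 3 without antigen (adjusted p 0.0645), and without replicate 1 of that group it was 2.94. For Iglc2 it was -1.60 ± 0.55 and did not pass (adjusted p 0.0697). These comparisons share libraries with the genotype comparisons above.

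The isotype shares moved with antigen as well. Over both genotypes the IgG share was 6.41 points higher with antigen (exact permutation p 0.005, the smallest this test can give; adjusted p 0.0164). It stood at 7.59% ± 1.36 without and 17.6% ± 0.44 with antigen in WT, and at 79.7% ± 1.07 and 82.5% ± 0.45 in knockout (SD, n = 3). Ighg2b rose by 3.91 points and Ighd by 0.66 points at the same adjusted p, and Ighg3 by 0.41 points (exact permutation adjusted p 0.03). The Ighg3 call was lost without knockout replicate 2 or 3 without antigen. In WT and knockout taken singly, Ighg2b rose by 5.44 and 2.38 points and Ighd by 1.28 and 0.036 points. Ighg3 rose by 0.72 and 0.1 points, with overlap in knockout. The level of Ighd, in contrast to its share, was called higher with antigen in knockout only. The Ighm share, 75.6% ± 3.24 and 54.4% ± 6 in WT and 5.14% ± 0.64 and 4.87% ± 0.38 in knockout, did not pass (-10.7 points, exact permutation p 0.035, adjusted p 0.09). Ighg1, Ighg2c, Igha and the kappa share also did not pass. In WT the level of Ighm fell with antigen, as given above, while those of Ighg1, Ighg2b and Ighg2c did not pass the test with edgeR. With DESeq2 Ighg2b (adjusted p 0.02) and Ighg2c (0.0486) were called higher in WT, and Ighg2c also in an edgeR fit of the compared groups alone (0.0442).

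IL-1beta and IL-18, added to the antigen, gave no call among the members. In each of the 4 comparisons 0 of 10 passed (edgeR), 0 of 10 had an unadjusted p under 0.05 and 0 of 10 passed with DESeq2. Of all tested genes 0.0567% passed in WT with IL-1beta (0.0284% higher, 0.0284% lower), 0% in WT with IL-18, 0.0426% in knockout with IL-1beta (0.0426% higher, 0% lower) and 0.213% in knockout with IL-18 (0.0496% higher, 0.163% lower). Where it was 0% in edgeR, 580 genes had an unadjusted p under 0.05 and DESeq2 called 1. The largest of the 40 log2 fold changes was that of Ighg3 in WT with IL-1beta (-1.06 ± 0.85), from 9, 9 and 8 to 5, 3 and 5 counts. For Igkc the 4 values lay between -0.10 and 0.10, with SEs of 0.20 to 0.29. None of the 18 share tests for the cytokines passed (lowest adjusted p 0.0692, for Ighg3 with IL-1beta, exact permutation test).

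The cytokine responses of the members also did not pass a test of difference between genotypes, with 0 of 10 for IL-1beta and 0 of 10 for IL-18 (edgeR, DESeq2 0 and 0, unadjusted p under 0.05 in 0 and 0). The shares of all tested genes that passed were 0% and 0%. In edgeR 576 and 919 genes had an unadjusted p under 0.05, and DESeq2 called 0 and 4.

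The other genes of the immunoglobulin system were taken from lists, with counts called in each direction. Of the 7 other constant and surrogate light-chain genes 3 were tested. Iglc3 was higher in knockout in all 4 conditions (log2 2.03, 1.30, 1.39 and 1.71; edgeR adjusted p at most 0.0105). Ighe, the IgE gene, had 0 or 1 count in every WT library and 8 to 27 counts in every knockout library, at least 2.89-fold, 4.62-fold, 5.96-fold and 5.88-fold higher than the floor. Vpreb3, known from precursor B cells, was higher in the 3 antigen conditions (log2 1.76, 1.94 and 1.97), from 1 to 6 counts per WT library, and was at 0.33 and not called without antigen (edgeR adjusted p 0.741).

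Of the 18 genes of antibody assembly and secretion 16 were tested, and 7, 6, 7 and 8 were higher and 0, 2, 3 and 2 lower in knockout without antigen, with antigen, with IL-1beta and with IL-18. Among all tested genes 9.62%, 7.7%, 7.22% and 9.89% were higher and 7.25%, 7.62%, 6.55% and 10.3% lower. Jchain was higher by 4.50, 4.58, 4.72 and 4.79 on the log2 scale. The chaperones Hspa5 and Hsp90b1, the most abundant genes of this list, had log2 fold changes between -0.15 and 0.01, of which only that of Hspa5 with antigen passed (-0.15, edgeR adjusted p 0.0171). Xbp1, the transcription factor of the secretory programme, was at 0.06 without antigen (not called) and at 0.15, 0.10 and 0.19 with it (called).

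The plasma cell markers outside the immunoglobulin loci were mostly higher. Of 12 such markers 11 were tested, and 8, 7, 8 and 8 were higher and 1 lower in each of the 4 conditions. Among all tested genes 9.62%, 7.7%, 7.22% and 9.89% were higher and 7.25%, 7.62%, 6.55% and 10.3% lower. All of the 12 but Slamf7 and Cd38 are also in the assembly and secretion list. The counts of both lists thus rest largely on the same genes. The 12 markers summed to 1046 to 1964 CPM in knockout libraries and 732 to 1765 CPM in WT libraries, without overlap within each condition, and none of them was at 0 in a whole group. Without antigen the mean sums were 1064 and 744 CPM, of which Jchain gave 191 and 8.46 CPM. With antigen alone they were 1911 and 1625 CPM, and Cd38 rose in both genotypes (log2 7.89 and 7.22). The part of plasma cells in these sums was not tested. Mzb1, which helps assemble secreted IgM, stood at 1.38, 1.01 and 0.853 CPM in knockout without antigen and at 0, 0.0483 and 0.0492 CPM in WT, at least 7.36-fold higher than the floor. Derl3, of the endoplasmic reticulum's protein disposal, was higher by 2.33, 3.95, 4.21 and 5.46 on the log2 scale, and Irf4, a transcription factor of plasma cells, by 0.44 without antigen, 1.14 with it, 1.22 with IL-1beta and 2.83-fold (linear) with IL-18. Tent5c, a poly(A) polymerase that stabilises immunoglobulin RNA, was higher by 0.44 to 0.57. Prdm1 was higher by 0.23, 0.25 and 0.18 without antigen, with IL-1beta and with IL-18, with 0.06 and no call with antigen alone. Sdc1 (CD138) was higher without antigen (0.46) and lower in the 3 antigen conditions (-0.42, -0.36 and -0.28), and Cd38 was lower without antigen (-0.46) and higher with it (0.21, 0.14 and 0.17). Slamf7 was higher without antigen (0.21) and not called with it, and Fkbp11 was not called in any condition. Tnfrsf17 was too low to be tested, with 1 to 30 counts summed over the libraries of a group.

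The B cell markers moved in both directions. Of 15 such markers 13 were tested, with 1, 1, 2 and 3 higher and 6, 5, 3 and 2 lower in knockout in the 4 conditions. Among all tested genes 9.62%, 7.7%, 7.22% and 9.89% were higher and 7.25%, 7.62%, 6.55% and 10.3% lower. Without antigen the 15 markers summed to 199 to 226 CPM in knockout and 175 to 188 CPM in WT libraries. With antigen alone they summed to 213 to 223 and 247 to 250 CPM. Without antigen Pax5, which holds B cells in their identity, stood at 0.197, 0.266 and 0.18 CPM in knockout and at 1.63, 1.16 and 1.82 CPM in WT (log2 -2.82 ± 0.4, edgeR adjusted p 5.39e-06). Spib (-1.86), Blk (-2.23), Ebf1 (-1.53) and Cd79b (-0.33) were also lower. Cd22 was higher (0.55), and Cd79a (0.34), Ms4a1 (0.66), Cd72 (0.17), Bank1 (-0.20), Fcrla (0.17) and Fcmr (-1.21) did not pass.

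With antigen and IL-18 the B cell genes Cd79a (0.87), Ms4a1 (1.33) and Cd22 (0.34) were higher in knockout and Spib (-0.96) and Cd72 (-0.38) were lower, while Pax5 (-0.17) did not pass. Cr2 and Fcer2a were too low to be tested, and Cr2 had no count in knockout without antigen. The part that these other cell markers have in the levels of the members was not tested.

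Of the 19 genes that act in class switch recombination 18 were tested, with 0, 0, 1 and 0 higher and 1, 2, 1 and 4 lower in the 4 conditions. Over all tested genes 16.9%, 15.3%, 13.8% and 20.2% were called, of which 7.25%, 7.62%, 6.55% and 10.3% of all tested genes were lower. The counts of this list were not tested against these shares. Msh6, of mismatch repair, was lower in the 3 antigen conditions (log2 -0.32, -0.31 and -0.33) and was at -0.09 without antigen (not called). Trp53bp1 was lower with antigen (-0.18) and with IL-18 (-0.15), Rif1 with IL-18 (-0.21), and Prkdc was not called in any condition. Exo1 (-0.46 without antigen), Apex2 (-0.52 with IL-18) and Xrcc5 (0.85 with IL-1beta), named after their values were seen, make up the other calls.

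Of the 17 signals and receptors that direct isotype choice 13 were tested, with 3, 0, 2 and 4 higher and 2, 1, 2 and 1 lower. Among all tested genes 9.62%, 7.7%, 7.22% and 9.89% were higher and 7.25%, 7.62%, 6.55% and 10.3% lower. Il4ra was lower without antigen (-0.21) and higher with IL-18 (0.25). Ifngr1 was higher without antigen (0.14), and Tgfb1 (0.04 to 0.11) and Tgfbr2 (-0.03 to 0.02) were not called in any condition. The other calls, named after their values were seen, included Tnfsf13, which encodes the B cell and plasma cell survival factor APRIL and was higher without antigen (0.91), with IL-1beta (1.25) and with IL-18 (0.92). Il6 was lower in the 3 antigen conditions (-1.23, -1.23 and -0.97), and Tnfrsf13c, the BAFF receptor, was higher in 3 conditions (1.36 without antigen, 1.26 with IL-1beta and 0.99 with IL-18). Il21r was lower without antigen (-0.55) and higher with IL-18 (0.41), and Tnfsf13b, which encodes BAFF, was lower with IL-1beta (-0.56). Of the 12 listed genes of Fc receptors and related proteins 9 were tested, and 0, 0, 0 and 2 were higher and 2, 0, 0 and 0 lower. In either direction 16.9%, 15.3%, 13.8% and 20.2% of all tested genes were called, and the counts were not tested against these shares. Fcgr3 (0.15) and Fcgr2b (0.30) were the 2 that were higher with IL-18, while Fcgr1 and Fcer1g were not called in any condition. The 2 lower ones without antigen were Fcgrt (-0.42), the neonatal Fc receptor, and Trim21 (-0.29), named after their values were seen.

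The genes outside the immunoglobulin loci whose level was most like that of the summed members were sought among 11827 genes. Over the 24 libraries these were Jchain, Gm15446, Amd2, Lrmda and Arhgef18, for which no coefficient is given because the libraries fall into 2 clusters by genotype. By deviation from the group means, which removes the genotype and the treatment, they were Jchain (Pearson r 0.963), F2r (0.915), Gucy1a1 (0.863), Zfp865 (0.863) and Tuba4a (0.858), over 24 libraries. Both values of a point come from the same library and depth, so these are descriptions. Among the members the deviations of Igkc went most closely with those of Igha (r 0.892), Ighm (0.768) and Ighg2b (0.736), and least with those of Ighg3 (0.365).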

How the data were processed

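Poly(A) RNA of 24 co-cultures was extracted with Trizol, per the labels' protocols. The deposited table holds raw counts per Ensembl gene, which the authors deposited. The submitters' processing notes name fastp, without a version, and the build GRCm39. The aligner, counter and annotation are not given in the sources used here. Symbols were matched by Ensembl identifier (346 without a symbol). Groups came from the titles.

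Counts were filtered with filterByExpr (14099 genes, 99.9% of counts), scaled with TMM and fitted over all 24 libraries with edgeR 4.0.16 in R 4.3.3 (quasi-likelihood, robust, 1 coefficient per group, 16 residual degrees of freedom). Calls were Benjamini-Hochberg adjusted p under 0.05 within each of 13 comparisons; the scripts were tested on simulated data. The floor was 3 counts per library. Depth was 17744540 to 24898552 counts, and the common biological coefficient of variation was 5.01%. Shares were compared with exact permutation tests over 36 tests, with 95% Clopper-Pearson intervals. The members and gene lists were chosen with earlier results of these data known. Named were the 10 members, Tmem175, the B cell and plasma cell markers (a few items are not reported here), the 4 most abundant genes of other lists (others where counts were few) and the 5 most similar genes. Alternatives were median-of-ratios factors and Wald tests of DESeq2 1.42.0, no filter, a replicate block, the compared groups alone, each library left out, and other share scales. No coordinates are given because the annotation used here (GENCODE vM21) is of an earlier build.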

Additional observations from a re-analysis of the deposited data

Results flagged for a closer look

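The antigen response differed between genotypes by the interaction test (edgeR) for 2 members and 6 of the marker genes named here. Ighm fell with antigen in WT (log2 -1.41) and stood at 0.25 in knockout, a difference of 1.66 (adjusted p 0.000633). Ighd was at 0.22 in WT and rose by 2.20 in knockout, a difference of 1.98 (adjusted p 0.0135). Of the B cell genes, the difference was 1.62 for Pax5 (adjusted p 0.0467), which was lower in knockout without antigen, and -0.27 for Cd22 (0.0392) and -0.47 for Cd72 (0.0139). Of the plasma cell genes, it was 0.70 for Irf4 (adjusted p 0.0191), which fell in WT (-0.93), -0.88 for Sdc1 (1.81e-06), which fell in knockout (-0.99), and 0.67 for Cd38 (0.000486), which rose in both (7.22 and 7.89).

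The Igha share moved in opposite directions with antigen. It was higher in all 3 WT libraries with antigen than in all 3 without (25.7% ± 6.18 against 15.8% ± 2.06), and lower in all 3 knockout libraries (12.5% ± 0.09 against 15.1% ± 0.82; SD, n = 3). The knockout change minus the WT change was -12.5 percentage points. This difference was not tested. The level of Igha itself was not called as changed by antigen in either genotype. Its mean was 17.3 CPM without and 15.4 CPM with antigen in WT, and 236 and 241 CPM in knockout. A share also moves when other genes of the sum do, and Ighm in WT went from a mean of 82.7 to 31.1 CPM.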

How the results depend on the processing

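In the 4 genotype comparisons 9 members passed under every alternative run. With antigen in WT the 2 calls became 1 without the filter on low counts and 4 with DESeq2's Wald test (Ighg2b and Ighg2c added), and 1 to 2 when a library was left out (1 without WT_none replicate 2). In knockout the 3 calls became 6 with the replicate block (Ighg1, Ighg2b and Ighg2c added) and lay at 2 to 4 otherwise. The interaction had 1 call with DESeq2, which gave Ighd no adjusted p, 3 without the filter or with the block (Iglc2 added), and 1 to 3 when a library was left out. The replicate numbers were not taken to pair the samples, since in no comparison were all correlations of same-numbered deviations over 0.1 (range -0.01 to 0.30). In 5 of 10 comparisons, though, all 3 libraries correlated best with their own number, a hint from the data and not from the design. In all 4 knockout groups replicate 2 had the lowest and replicate 1 the highest summed level of the members (1.21 to 1.81 times apart).

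All shares kept their side of the threshold on the other scales, including per kilobase of the shortest transcript, an alternative added after the data were seen. Leaving out a library moved the Ighg3 genotype difference between -0.35 and -0.20 points (called without WT_Ag_IL18 replicate 1). Under antigen it moved Ighm between -12.2 and -9.19 (called without KO_none replicate 1) and Ighg3 between 0.37 and 0.46 (lost without KO_none replicate 2 or 3). With IL-1beta it moved Ighg3 between -0.27 and -0.18 (called without KO_Ag replicate 2), and with IL-18 Igha between -0.0235 and 3.05 (called without WT_Ag replicate 3). Depth limits the WT values of Ighg3, Ighg2c, Ighd, Iglc1 and Iglc2, with under 50 counts per library each.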
